A study of Mus musculus with 14 samples.

Results

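To describe how H3K27me3 at Wnt signalling genes compared between control and *NeuID* knockdown neurons, the listed peaks at 47 genes were examined. The genes were 19 Wnt ligands, 10 frizzled receptors, 10 secreted inhibitors, 6 R-spondin and Lgr genes and 2 intracellular feedback inhibitors. A peak was taken when it overlapped a gene body or the 5 kb on either side of it, which gave 166 of the 23668 listed peaks. The set was proposed with earlier results of this comparison known, so the group means of these peaks count as values the genes were chosen by, and the differences below are a description without a test.

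H3K27me3, trimethylated lysine 27 of histone H3, was profiled by chromatin immunoprecipitation and sequencing in wild-type (WT) primary hippocampal neurons. The neurons came from hippocampi of CD1 mouse embryos and carried no transgene. The labels list 6 control libraries, from cultures given a negative control gapmer, and 6 NeuID knockdown libraries, from cultures given a single gapmer against the long noncoding RNA *NeuID*. Gapmers are antisense oligonucleotides that lead RNase H to cleave their target, and both were delivered in lipid nanoparticles. For each peak the authors' log2 mean of normalized reads in each group was available. This is called the level here, and the difference is the knockdown level minus the control level. The overall mean weights the groups as 6 control and 5 knockdown libraries would, so 1 knockdown library appears not to enter the means. In a figure of this experiment the authors state 5 per group, which differs from both the labels and this weighting. No SD or standard error can be given for a level, since single libraries were not analysed here, and the p-values of the authors' own comparison were left unused. The depth of each library is unknown. H3K27me3 marks silenced genes and does not measure expression. As a check on the labelled cell type, 1 of 8 neuronal marker genes (*Nefl*) had a listed peak within 1 kb of its start, against 3 of 5 oligodendrocyte lineage genes and 3 of 4 genes of other lineages. No astrocyte gene of 4 and no microglial gene of 3 had one. Among all protein-coding genes 9.86% did. Within the gene body plus 5 kb, 4 of 8 neuronal and 4 of 5 oligodendrocyte lineage genes had a listed peak. So did 1 of 4 astrocyte genes, 1 of 3 microglial genes and 3 of 4 genes of other lineages, against 28.3% of all protein-coding genes. These few markers do not settle the cell type.

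Wnt proteins are secreted, lipid-modified ligands that bind frizzled receptors and their co-receptors, and in the canonical branch this stops the destruction of beta-catenin, which then activates target genes with TCF/LEF factors. Secreted frizzled-related proteins, Wif1 and Dickkopf proteins block the ligand or the receptor, R-spondins bound to Lgr receptors keep frizzleds at the cell surface, and Axin2, Nkd1 and Notum are feedback inhibitors that Wnt signalling itself induces. In the embryo these genes pattern the dorsal neural tube and the cortical hem, where Wnt3a is needed for the hippocampus to form. Many of them are silenced in differentiated cells by Polycomb repressive complex 2, which deposits H3K27me3, mostly at CpG-rich gene starts.

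The sequence before the gene start is shown for 6 members because listed peaks lay within 1 kb of these starts. *Wnt1*, *Fzd10*, *Notum* and *Rspo1* had the highest mean of both levels at a start in their subgroup, *Wnt9a* had the start peak with the lowest difference and *Lgr5* the one with the highest. No start of an intracellular feedback inhibitor had a peak. Highest and lowest refer to peaks with both groups above 0. The peaks by which *Wnt9a*, *Lgr5* and *Notum* were chosen begin 682, 836 and 688 bp inside the gene. No listed peak overlaps the bases shown for *Wnt9a* and *Lgr5*, while another *Notum* peak covers its start. Among inhibitor peaks that cover the start itself, *Sfrp5* had a higher mean than *Notum*, 5.38 against 5.27. The sequences were read from GRCm38 (the build that mm10 names), 5′ to 3′ along the gene, and begin 250 bases before the GENCODE M21 start. Bases that RefSeq places inside the gene were trimmed. The *Fzd10* stretch overlaps an exon of a non-coding RNA. Capitals mark CG dinucleotides.
Wnt1 (chr15:98789607-98789856, plus strand): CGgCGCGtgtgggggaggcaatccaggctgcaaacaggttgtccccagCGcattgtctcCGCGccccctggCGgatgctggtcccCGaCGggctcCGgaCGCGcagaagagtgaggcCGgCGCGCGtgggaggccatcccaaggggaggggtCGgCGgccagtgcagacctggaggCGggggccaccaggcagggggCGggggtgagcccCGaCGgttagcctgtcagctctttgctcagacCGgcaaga
Fzd10 (chr5:128600594-128600843, plus strand): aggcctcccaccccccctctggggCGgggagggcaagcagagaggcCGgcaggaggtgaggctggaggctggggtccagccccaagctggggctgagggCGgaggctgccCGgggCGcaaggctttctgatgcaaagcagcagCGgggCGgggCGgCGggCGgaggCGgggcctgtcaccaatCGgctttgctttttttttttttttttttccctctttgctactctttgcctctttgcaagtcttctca
Notum (chr11:120661194-120661425, minus strand): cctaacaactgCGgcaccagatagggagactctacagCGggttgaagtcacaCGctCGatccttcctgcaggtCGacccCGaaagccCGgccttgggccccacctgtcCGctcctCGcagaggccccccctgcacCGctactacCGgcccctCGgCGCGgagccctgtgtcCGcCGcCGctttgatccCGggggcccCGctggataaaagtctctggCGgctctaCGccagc
Rspo1 (chr4:124986180-124986400, plus strand): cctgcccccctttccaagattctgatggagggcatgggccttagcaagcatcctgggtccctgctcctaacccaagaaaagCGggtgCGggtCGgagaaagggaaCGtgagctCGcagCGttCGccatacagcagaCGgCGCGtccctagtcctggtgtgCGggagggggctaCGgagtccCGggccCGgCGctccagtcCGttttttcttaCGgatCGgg
Wnt9a (chr11:59306678-59306848, plus strand): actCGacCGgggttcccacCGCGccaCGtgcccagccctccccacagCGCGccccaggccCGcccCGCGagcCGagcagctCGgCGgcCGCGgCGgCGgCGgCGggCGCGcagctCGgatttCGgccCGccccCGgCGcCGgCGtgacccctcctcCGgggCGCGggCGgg
Lgr5 (chr10:115587781-115588030, minus strand): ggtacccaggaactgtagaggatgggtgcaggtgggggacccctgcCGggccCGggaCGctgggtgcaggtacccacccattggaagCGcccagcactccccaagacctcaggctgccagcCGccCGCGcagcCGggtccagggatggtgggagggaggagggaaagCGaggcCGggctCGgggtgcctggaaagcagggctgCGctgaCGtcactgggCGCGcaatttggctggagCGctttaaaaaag

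The 250 bases before *Wnt9a* held 48 CG dinucleotides, the most of any member. The same length held 23 before *Wnt1* and *Notum*, 22 before *Rspo1*, 16 before *Lgr5* and 12 before *Fzd10*. The median over the 47 members was 17, against 8 over 21931 protein-coding gene starts. Members with and without a listed start peak did not separate by this count, with medians of 17 over 27 genes and 18 over 20 genes. TCF/LEF factors bind words that start with CTTTG and end in AA, AT, TA or TT. At least 1 of these 4 words was present on either strand before 4 of the 47 members (8.51%) and before 14.3% of all protein-coding starts. Of the sequences shown, *Notum* held CTTTGAT and the others held none of the 4.

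Wnt genes were marked more often than most genes. Of the 47 members, 35 had a listed peak in their window, or 74.5%, and 27 had one within 1 kb of the gene start, or 57.4%. Among all protein-coding genes these shares were 28.3% and 9.86%. They were 76.5% and 47.1% among 34 BMP, FGF and hedgehog ligand genes and 100% and 100% among 39 Hox genes. Frequent marking was thus not particular to the Wnt genes. Start peaks were most frequent at ligands and secreted inhibitors. One was present at 15 of 19 Wnt ligands, 6 of 10 secreted inhibitors and 3 of 6 R-spondin and Lgr genes, but at only 3 of 10 frizzled receptors. No peak was listed for *Wnt5b*, *Wnt7a*, *Fzd1*, *Fzd2*, *Fzd3*, *Fzd4*, *Fzd6*, *Fzd8*, *Fzd9*, *Sfrp1*, *Sfrp4* and *Rspo2*.

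Across the members, more peaks were lower than higher after knockdown. Both groups were above 0 in 160 peaks, of which 63.8% were below 0 in difference, against 50.8% of all listed peaks. Of the 160, 38 were lower by more than 1 log2 unit and 9 were higher by more than 1. Over all listed peaks with both groups above 0, 18.5% were lower and 18.4% higher by this limit, whereas among the members these shares were 23.8% and 5.62%. The share of lower member peaks was thus a little above that of all peaks, and the share of higher ones well below it. The median difference was -0.32 for the members and -0.02 for all listed peaks. *Lgr5*, with 31 peaks, supplied 8 of the lower and 2 of the higher peaks, and without it the median was -0.25. In 6 member peaks the knockdown was listed at 0, meaning at most 1 normalized read per library, and in 0 member peaks was the control listed at 0. Over all listed peaks these shares were 3.35% and 3.28%.

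**Figure D1:**
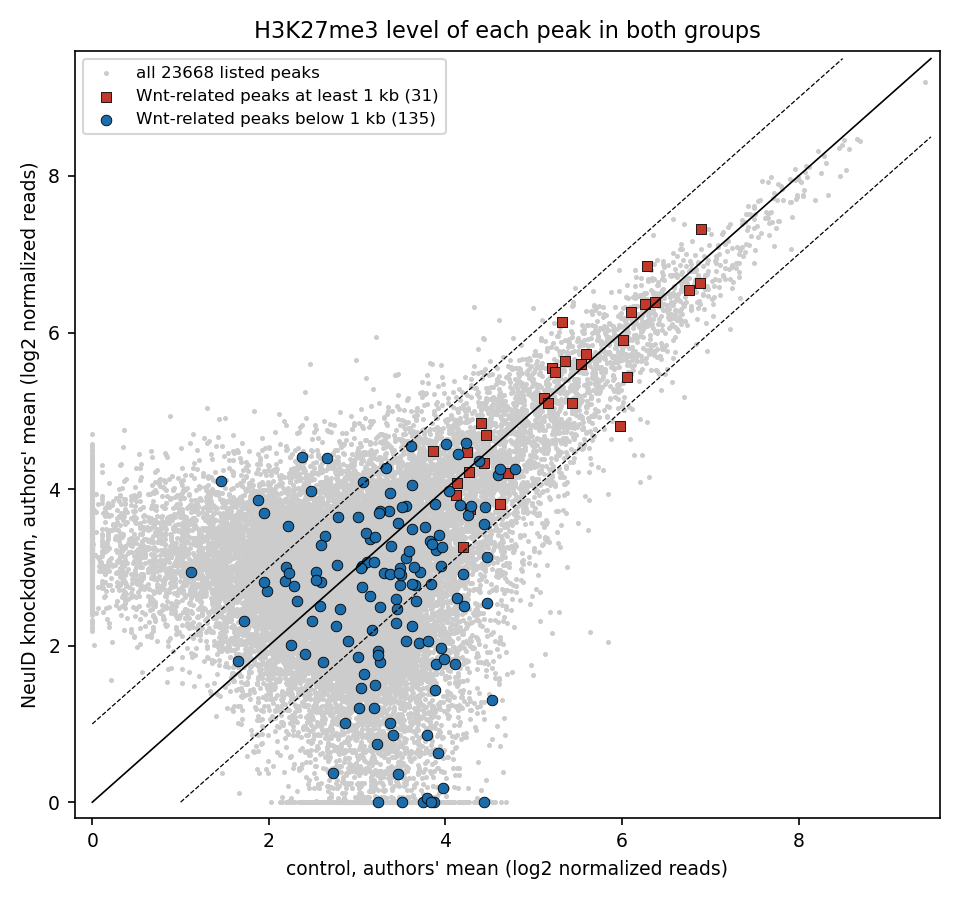
Authors' mean level of each peak in control (x axis) and NeuID knockdown (y axis), both in log2 normalized reads. Grey points are all 23668 listed peaks, red squares the 31 Wnt-related peaks of at least 1 kb and blue circles the 135 below 1 kb. The solid line marks equal levels and the dashed lines a difference of 1. The squares follow the line of equal levels, and most circles past the dashed lines lie below.

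Peak width separated the members. The 31 peaks of at least 1 kb had a median difference of 0.02, with 1 lower and 0 higher by more than 1, where 7.91% and 5.08% of all peaks of this width were. Their levels were high, with a median of 5.24 and 5.16 in control and knockdown, and 19 of them lay over a gene start. The 129 shorter peaks with both groups above 0 had a median difference of -0.49. Of these, 37 (28.7%) were lower and 9 (6.98%) higher by more than 1, against 19.8% and 19.9% of all peaks below 1 kb. All 6 peaks listed at 0 in the knockdown were shorter than 1 kb. Differences beyond 1 were more frequent among weak peaks of any gene. With a mean of both levels below 2.5, 28.5% of all listed peaks were lower and 29.1% higher by more than 1. The 27 members in that range comprised 16 lower peaks and 1 higher peak. At a mean of 5 or more, 1 of 19 member peaks was lower and 0 were higher, where 2.34% and 0.832% of all listed peaks of that strength were. These width and strength classes were drawn after the values had been seen.

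**Figure D2:**
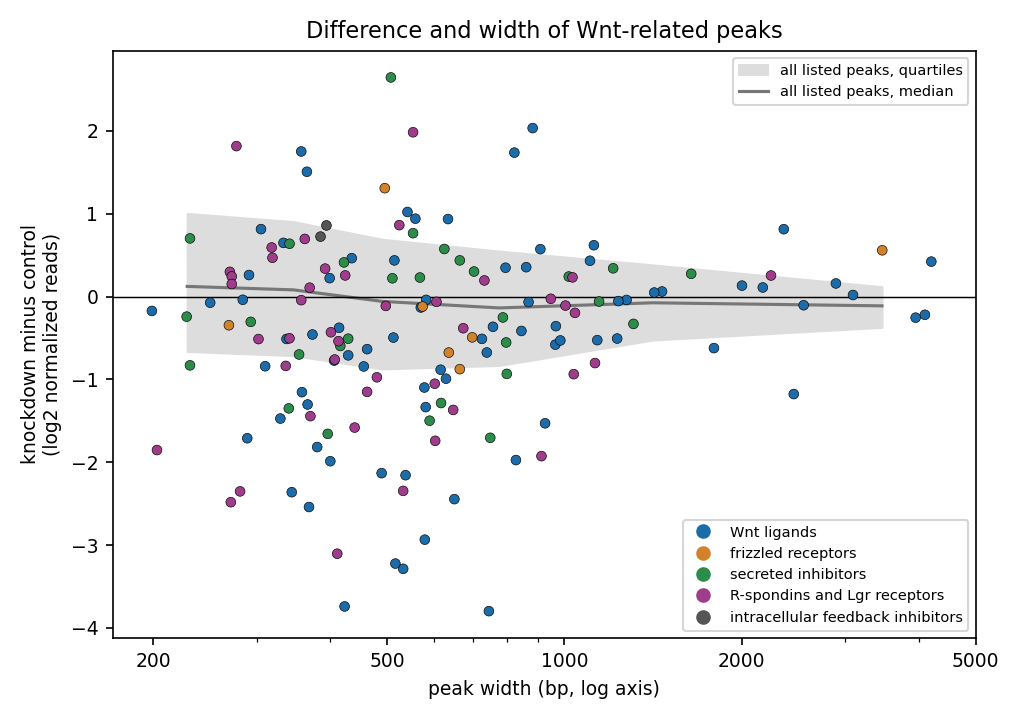
Peak width (bp, log axis) against the difference, knockdown minus control in log2 normalized reads, for the 160 Wnt-related peaks with both groups above 0, coloured by subgroup. The grey line and band give the median and quartiles of all listed peaks by width class. Points far below the band are peaks below 1 kb, and from 1 kb upwards a single point, a *Wnt3a* peak, lies below -1.

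Wide H3K27me3 domains lay over the starts of several Wnt ligand genes. *Wnt1*, a ligand of the midbrain and dorsal neural tube, had the highest start level of the members, in a 4202 bp peak over its start and most of the gene (chr15:98789100-98793301). The level was 6.90 in control neurons and 7.32 after knockdown. In what follows, where 2 levels are given together, the control comes first and the knockdown second. *Wnt3*, another ligand of the dorsal neural tube, had 6.88 and 6.63 over its start (chr11:103770862-103774813). *Wnt6* had 6.76 and 6.54 (chr1:74768619-74772716). These 3 domains differed by 0.42, -0.25 and -0.22, which is less than 1 log2 unit and without a common direction.

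*Wnt3a*, the cortical hem ligand, carried a pair of wide peaks at its start. The one over the first part of the gene (chr11:59287698-59290790) had 6.37 and 6.39. The one just upstream (chr11:59290984-59293436) had 5.98 and 4.81, a difference of -1.18. This was the only member peak with a mean level of at least 4 that was lower by more than 1, out of 41 such peaks, where 5.96% of all listed peaks of that strength were lower and 4.2% higher. Next to it, farther upstream, a 563 bp peak (chr11:59293619-59294181) was at 3.87 in the control and listed at 0 in the knockdown.

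The other wide ligand starts each differed by less than 1 log2 unit. The start peak of *Wnt10b*, which lies beside *Wnt1*, had 6.26 and 6.37, and a shorter peak at the same start had 4.60 and 4.18. *Wnt10a*, beside *Wnt6*, had 5.54 and 5.60, and *Wnt11*, mostly a non-canonical ligand, had 6.01 and 5.90. *Wnt16* had 5.60 and 5.73 and *Wnt2b*, another cortical hem ligand, 6.06 and 5.44. *Wnt8b*, which marks the cortical hem and the embryonic hippocampus, had 4.28 and 3.75 at its start, while its widest peak, over the 3′ part of the gene (chr19:44509974-44512332), had 5.32 and 6.13. The difference of *Wnt2b*, -0.62, was the lowest among the widest start peaks of the 17 member genes whose start carried a peak of at least 1 kb. The highest was 0.56, at *Fzd10*. Over all protein-coding genes such peaks had quartiles of -0.37 and 0.29. *Wnt2b* and *Wnt8b* lay below this range, and *Wnt1*, *Fzd10* and *Sfrp5* above it.

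Shorter peaks at the starts of ligand genes were more varied. *Wnt4*, a ligand in kidney and gonad development, had 4.13 in the control and 2.60 in the knockdown just upstream of its start (chr4:137276136-137277062). *Wnt2* had 3.03 and 1.21 in one start peak and 4.17 and 3.80 in another. *Wnt9b* had 4.47 and 3.13 in one and 2.19 and 3.01 in another. The single *Wnt7b* peak had 3.64 and 3.00. *Wnt9a*, beside *Wnt3a*, had 3 start peaks, at 3.19 and 1.20, at 2.49 and 2.32, and at 3.61 in the control and 4.55 in the knockdown. The lowest and highest of these differences lay on opposite sides of 0, at -1.99 and 0.94. A 354 bp peak inside the start region of *Wnt3* (chr11:103775093-103775446) was at 3.75 in the control and listed at 0 in the knockdown, next to the wide domain described above.

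Away from the starts, lower and higher short peaks lay beside the wide domains, the lower ones in greater number. Downstream of the start domain of *Wnt16*, 3 peaks within 5 kb were at 3.38, 3.79 and 3.44 in the control and at 1.01, 0.85 and 2.29 in the knockdown. Each was lower by more than 1. In *Wnt10a*, 2 peaks that follow the start domain (chr1:74794118-74794633 and chr1:74794814-74795102) had 4.53 and 3.20 in the control and 1.31 and 1.49 in the knockdown. In the same gene, a peak at 3.95 and 1.97 and a peak at 2.37 and 4.41 lay less than 2 kb apart, so neighbouring short peaks did not always share a direction. The other ligand peaks higher by more than 1 were a second one of *Wnt10a*, at 2.47 and 3.98, one upstream of *Wnt11*, at 2.66 and 4.40, one in the 3′ part of *Wnt8b*, at 1.94 and 3.69, and one in an intron of *Wnt3a*, at 3.06 and 4.08.

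*Wnt9b* and *Wnt5a* held the member peaks with the lowest differences among those with both groups above 0. In *Wnt5a*, the main non-canonical ligand, 2 of 3 peaks inside the gene had 3.98 and 3.40 in the control and 0.18 and 0.86 in the knockdown, and the third had 4.00 and 4.58. *Wnt9b* had a peak upstream of its start (chr11:103750942-103751364) at 3.80 and 0.05 and one inside the gene at 3.91 and 0.63. A 1235 bp peak near these (chr11:103751601-103752835) had 4.13 and 4.08. In *Wnt4*, the upstream peaks at 3.90 and 3.26 in the control were at 1.76 and 1.79 in the knockdown, and the farthest, at 2.18, was at 2.83.

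Over all 19 ligands, 81 peaks were listed, of which 21 were lower and 5 higher by more than 1, and 2 were listed at 0 in the knockdown. The lower and higher ones were 26.6% and 6.33% of the 79 with both groups above 0. Over all listed peaks these shares were 18.5% and 18.4%. The median difference was -0.38. No share of all protein-coding genes with a median below 0 is given, and among the 17 ligand genes with a peak 14 had one. The exceptions were *Wnt1* at 0.39, *Wnt11* at 0.13 and *Wnt9a* at 0.02. *Wnt8a*, a ligand of the early embryo, had a single peak downstream of the gene at 4.26 and 4.22. *Wnt6* and *Wnt10a* share 2 of the 81 peaks, which lie between the genes and were counted once for the subgroup.

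**Figure D3:**
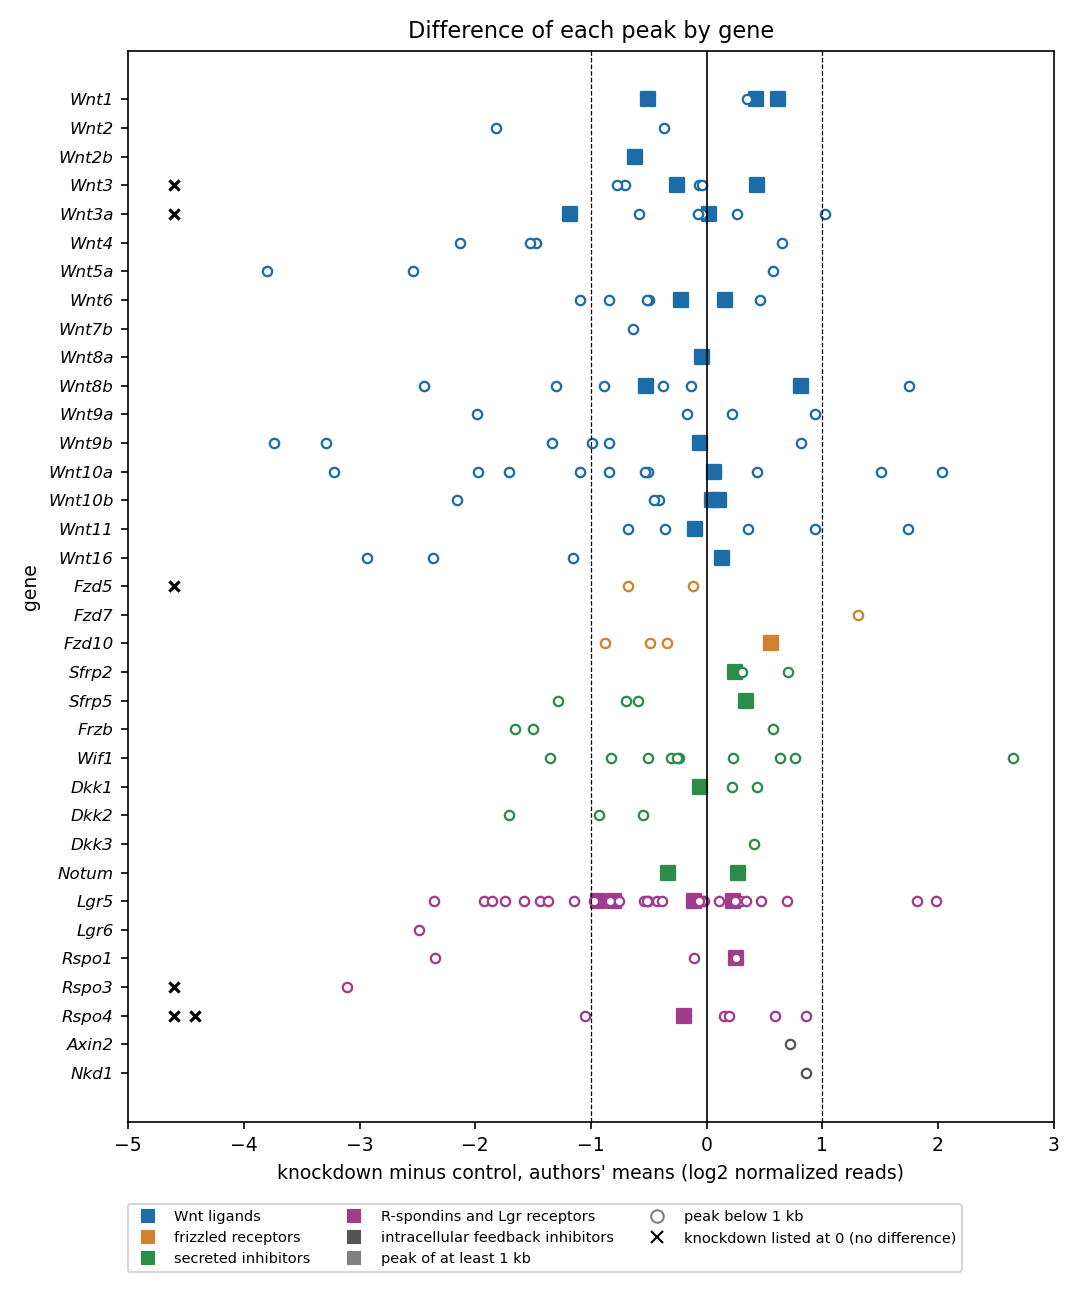
Difference of each peak, knockdown minus control in log2 normalized reads (x axis), for the 35 genes with a listed peak (y axis). Filled squares are peaks of at least 1 kb, open circles shorter peaks, and colours the 5 subgroups. Crosses at the left margin, where the axis value has no meaning, stand for the 6 peaks whose knockdown level was listed at 0. Squares stay within 1 log2 unit of 0 except for 1 *Wnt3a* peak, while circles reach from -3.80 to 2.65.

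**Figure D4:**
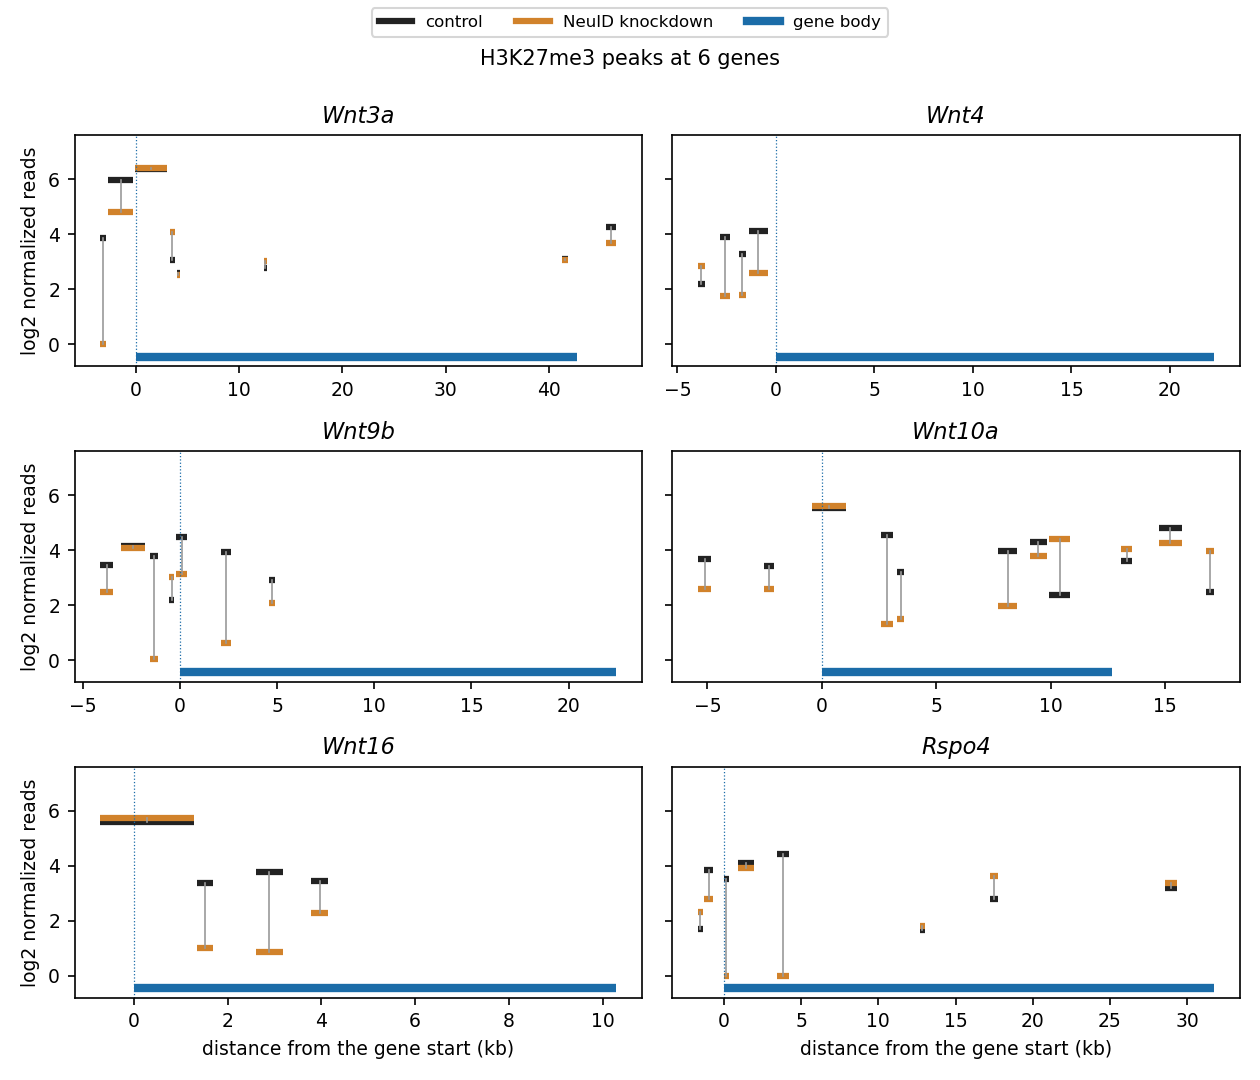
Listed peaks at 6 genes by distance from the gene start in kb (x axis) and level in log2 normalized reads (y axis). Each peak is a bar for the control (black) and one for the knockdown (orange), joined by a grey line, and the blue bar is the gene body. The start domains of *Wnt10a* and *Wnt16* have nearly the same level in both groups. The shorter peaks of *Wnt16* are all lower in the knockdown, and those of *Wnt10a* lie on both sides, 3 of them higher.

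Frizzled receptors, the membrane proteins that bind Wnt ligands, had a listed peak in 30% of genes, near the 28.3% of all protein-coding genes. *Fzd10* carried the one wide domain of this subgroup, a 3468 bp peak over its start and the first part of the gene (chr5:128599229-128602696), with 6.29 and 6.84. Its 3 shorter peaks had differences of -0.35, -0.49 and -0.88. *Fzd5* had 3.19 and 3.07 at its start, 3.89 and 3.22 over its coding exon, and an upstream peak (chr1:64740456-64740953) at 3.83 in the control and listed at 0 in the knockdown. *Fzd7* had a single 495 bp peak over its start, at 2.22 and 3.52, which made it the only frizzled gene with a peak higher by more than 1. The receptors had 8 peaks in all, with 0 lower and 1 higher by more than 1 and 1 listed at 0 in the knockdown. Over all listed peaks 18.5% were lower, 18.4% higher and 3.35% listed at 0 in the knockdown.

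Among the secreted inhibitors, wide start peaks also differed by less than 1 log2 unit. *Sfrp5*, a frizzled-related decoy, had 5.21 in the control and 5.55 in the knockdown over its start, and 3.50 and 2.90 in a short peak beside it. An intronic peak of *Sfrp5* had 4.20 and 2.92. *Sfrp2*, another frizzled-related decoy, had 4.46 and 4.70 at its start and no peak with a difference below 0. *Dkk1*, which blocks the Lrp co-receptors, had 5.16 and 5.10 in a 1145 bp start peak and 3.14 and 3.36 in the peak that adjoins it. *Notum*, a secreted enzyme that removes the lipid of Wnt proteins, had 2 wide start peaks, at 5.36 and 5.63 and at 5.43 and 5.10. None of these start peaks differed by more than 0.60.

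*Frzb* and *Dkk2* also had peaks lower by more than 1. *Frzb*, also called Sfrp3, had 3.37 and 3.94 at its start but 3.56 and 3.70 in the control against 2.06 and 2.04 in the knockdown in 2 peaks farther into the gene (chr2:80444443-80445032 and chr2:80445106-80445501). *Dkk2* had 3.95 and 3.02 at its start, and its intronic peaks had differences of -1.71 and -0.55. *Wif1*, which binds Wnt ligands, had 10 short peaks along or just upstream of the gene and none at its start, with differences from -1.35 to 2.65. The highest of these (chr10:121077519-121078025), at 1.46 in the control and 4.11 in the knockdown, was the highest difference of any member. *Dkk3* had 1 peak, at 2.53 and 2.94. The 29 peaks of the 10 inhibitors included 5 lower and 1 higher by more than 1, with a median difference of -0.24. These were 17.2% and 3.45%, against 18.5% and 18.4% of all listed peaks. The share of lower inhibitor peaks was thus near that of all peaks.

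R-spondins and Lgr receptors, which raise the response of a cell to Wnt, held 3 of the 6 peaks listed at 0 in the knockdown. *Rspo4* had 2 of these, a 310 bp peak at its start (chr2:151842921-151843230) at 3.51 in the control and a 782 bp peak inside the gene (chr2:151846361-151847142) at 4.44. Its other start peaks had 3.83 and 2.78 and, in the widest, 4.12 and 3.92. The remaining 4 peaks of *Rspo4*, one upstream and 3 inside the gene, were higher in the knockdown by 0.15 to 0.86, and the median over its 6 peaks with both groups above 0 was 0.17. *Rspo3*, a ligand expressed in the cortical hem, had an intronic peak (chr10:29497081-29497337) at 3.23 in the control and listed at 0 in the knockdown, and an upstream peak at 3.47 and 0.36. Both *Rspo3* peaks were thus at or near 0 after knockdown. *Rspo1* had 5.24 and 5.49 in its 2244 bp start domain and an upstream peak at 4.11 and 1.76. The single peak of *Lgr6*, an intronic one, had 3.23 and 0.75.

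*Lgr5*, an R-spondin receptor and a marker of stem cells in several epithelia, had 31 peaks, the most of any member, spread over the 137 kb of the gene. Its levels were moderate, between 1.12 and 4.62 in the control. At the start, the peaks had 1.87 and 3.86 and 2.32 and 2.57, so the start was not where levels were lower. Up to the middle of the gene, the 13 peaks had a median difference of -0.06, with 3 lower and 1 higher by more than 1. Beyond the middle, the 18 peaks had a median of -0.65, and 15 of them were below 0, 5 lower and 1 higher by more than 1. Over all listed peaks 50.8% were below 0, 18.5% lower and 18.4% higher by this limit. Peaks of 1 gene are not replicates, and the contrast between the parts was not tested. The split at the middle was chosen after the values had been seen. Among the peaks of the 3′ part, one over coding exons (chr10:115462076-115463202) had 4.62 and 3.81, and one over a non-coding exon or untranslated region (chr10:115463685-115464598) had 4.47 and 2.54.

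**Figure D5:**
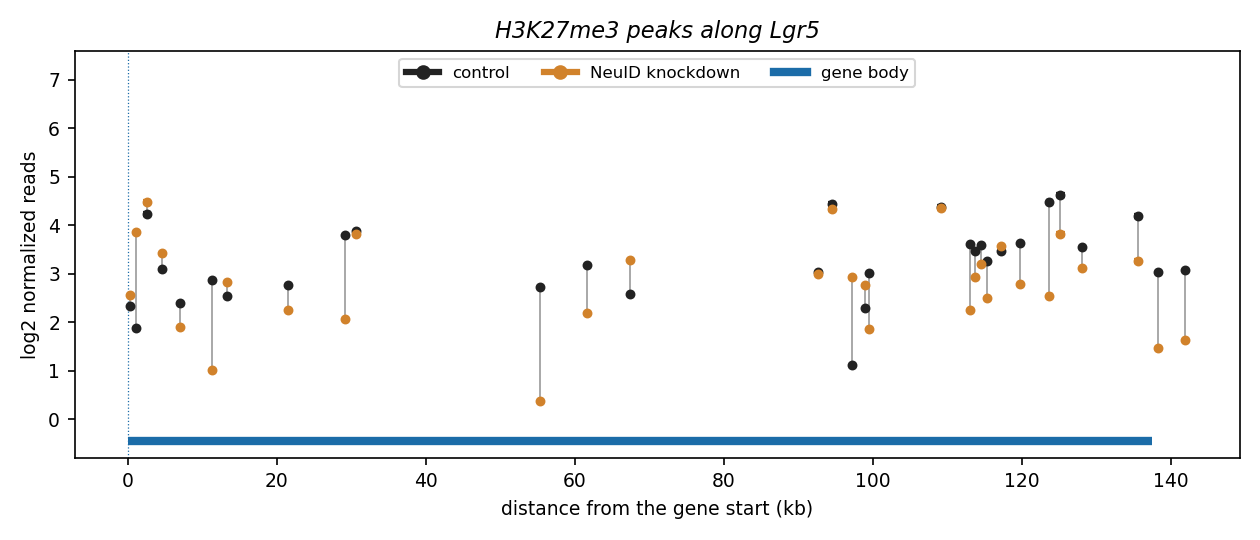
Listed peaks along *Lgr5* by distance from the gene start in kb (x axis) and level in log2 normalized reads (y axis). Points joined by a line are the control (black) and NeuID knockdown (orange) means of 1 peak, and the blue bar is the gene body. Near the start some orange points lie above the black ones, and beyond the middle of the gene 15 of 18 lie below.

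The intracellular feedback inhibitors carried almost no mark. *Axin2*, a scaffold of the complex that destroys beta-catenin, had a single 385 bp peak inside the gene at 1.98 in the control and 2.70 in the knockdown. *Nkd1*, which binds Dishevelled, had one at 1.95 and 2.81. These levels correspond to 3.94 and 3.86 normalized reads per library in the control and 6.50 and 7.00 in the knockdown.

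Within genes, the start domain could be set against its shorter neighbours. Of the 17 member genes with a start peak of at least 1 kb, 15 also had a shorter peak with both groups above 0. The median difference of the shorter peaks lay below that of the start domain in 11 of the 15, or 73.3%. Among all protein-coding genes this was so in 339 of 632, or 53.6%. Over the members, the start domains had a median difference of 0.06 and the 58 shorter peaks of the same genes -0.40, with 13 (22.4%) lower and 5 (8.62%) higher by more than 1. Over all protein-coding genes the corresponding medians were -0.04 and -0.10, and 19.4% of the shorter peaks were lower and 14.9% higher. The share of lower peaks was thus near that of other genes. The peaks of a gene share their surroundings and are not replicates, and the difference between these shares was not tested.

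Summed over each gene, the normalized reads per library were lower in the knockdown for 23 of 35 genes. No such share is given for all protein-coding genes, so this count cannot be set against theirs. The largest sums belonged to *Lgr5*, with 339 in the control and 262 in the knockdown, *Wnt6*, with 237 and 214, and *Wnt3a*, with 210 and 165. *Wnt1* went the other way, at 170 and 214. A peak listed at 0 entered the sum as 1 read, so the knockdown sums of *Wnt3*, *Wnt3a*, *Fzd5*, *Rspo3* and *Rspo4* are upper limits. The ratio of knockdown to control was at most 0.112 at *Rspo3*. It was 0.179 at *Lgr6* and 0.430 at *Wnt4*, and highest at *Fzd7* (2.48). For *Rspo3*, *Lgr6* and *Fzd7* these sums rest on 20.4, 9.38 and 4.64 control reads. With the widest peak of each gene alone, 48.6% of the genes rather than 65.7% were lower in the knockdown. With start peaks only, 51.9% of 27 genes were.

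Of the 35 member genes with a peak, 20 held a peak lower by more than 1, 7 held a higher one and 5 held both. Among all protein-coding genes with a listed peak, 28.6% held a lower and 31.4% a higher peak. The members had more peaks per gene, with a median of 4 against 1. By position, the 38 start peaks with both groups above 0 had a median difference of -0.11, with 6 lower and 2 higher by more than 1, where 12.3% and 13.8% of all peaks at protein-coding starts were. Peaks in the upstream flanks had a median of -0.50, those in introns -0.36 and those in the downstream flanks -0.49. Around the window limit of 5 kb, at *Wnt6*, the last upstream peak inside it had 3.48 and 2.99, and the first outside it, 5537 bp from the gene, 3.91 and 1.09. The peak nearest to the limit inside it, 4831 bp upstream of *Wnt10a*, had 3.67 and 2.57, and the next outside it, 5813 bp from *Wnt3*, had 3.25 and 2.56.

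Wide peaks held more CG dinucleotides than short ones, and the lower and higher member peaks had similar medians. The 38 peaks lower by more than 1 held a median of 1.41 CG dinucleotides per 100 bases and the 9 higher ones 1.44. Member peaks of at least 1 kb held 3.67, member peaks below 1 kb held 1.58 and all listed peaks below 1 kb held 1.14.

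Other genes of the pathway had a median on the other side of 0. A list of 50 genes for co-receptors, ligand processing, the destruction complex, Dishevelled, TCF/LEF factors, planar polarity and target genes had 65 peaks near 23 genes. Of the 61 peaks with both groups above 0, 8 (13.1%) were lower and 15 (24.6%) higher by more than 1. Over all listed peaks these shares were 18.5% and 18.4%. The median difference was 0.27, against -0.32 for the members and -0.02 for all listed peaks. In each group 2 peaks were listed at 0, where 3.35% of all listed peaks had the knockdown at 0 and 3.28% the control. Higher levels were found at the starts of *Tcf7l1*, a TCF/LEF repressor, with 1.70 and 4.11, and of *Ror2*, a receptor for Wnt5a, with 4.31 and 5.48, while a shorter *Ror2* start peak had 2.91 and 2.68. The start domain of *Lef1*, a TCF/LEF activator, had 6.22 and 6.14, and a 2326 bp peak at the start of *Sp5*, a Wnt target gene, had 6.21 and 6.01, beside start peaks at 4.79 and 5.40 and at 2.34 and 4.73. *Tcf7l2* held 3 peaks lower by more than 1, the widest (chr19:55893003-55893965) at 4.44 and 1.78. *Wls*, *Ccnd1*, *Ror2*, *Sost* and *Sp5* also held a peak lower by more than 1. Their differences were -2.05, -1.48, -1.13, -1.13 and -1.12. The gene median was below 0 for 5 of the 23 genes, and no such share is given for all protein-coding genes. For peaks of at least 1 kb alone the median of this list was -0.08, over 11 peaks. The difference between the lists was not tested.

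Ligands of other pathways were described in the same way. The 80 peaks of 34 BMP, FGF and hedgehog ligand genes had a median difference of 0.06, with 12 lower and 11 higher by more than 1. These were 15.6% and 14.3% of the 77 with both groups above 0, against 18.5% and 18.4% over all listed peaks. Below 1 kb, 11 of their 56 peaks with both groups above 0 were lower and 11 higher, or 19.6% each, where the Wnt members had 28.7% and 6.98%. The 161 peaks of 39 Hox genes, which are wider and stronger, had a median difference of -0.15, with 13 lower and 8 higher. These were 8.07% and 4.97%, below both shares over all listed peaks. Among all listed peaks of at least 1 kb, 7.91% were lower and 5.08% higher. The share of Hox peaks below 0 was 64.0%, about that of the Wnt members (63.8%). At the widest start domains, the medians of the 3 sets were close to each other, at 0.06 for the Wnt members, -0.03 for the BMP, FGF and hedgehog ligands and -0.10 for the Hox genes.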

How the data were processed

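Single-end reads had been aligned to mm10 (bowtie2), broad peaks called (MACS2) and the groups compared with DiffBind by the authors. The deposited log2 values are means of normalized reads per peak over all libraries and over each group; the normalization, merging rule, duplicate removal and input subtraction are not given in the sources used here. The Fold, p-value and FDR columns hold the authors' own comparison and were not used. No other per-sample columns were left out (0), and input libraries were not analysed here.

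Peaks overlapping a member's gene body plus 5 kb (GENCODE M21, GRCm38, at least 1 bp) were taken. All peaks on the chromosomes lay inside GRCm38 lengths. Differences were computed for peaks with both groups above 0, and a limit of 1 log2 unit was used for counts, without a test. Start peaks lay within 1 kb of the gene start. Named peaks were all start peaks, those with a mean level of at least 4 and a difference beyond 1, those listed at 0, the widest of the genes with the largest sums, and those at the window limit; short peaks beside start domains, *Lgr5*, *Wif1* and other pathway genes were named after their values were seen. Members and lists were chosen with earlier results of these data known. Alternatives varied the window, limit, filters, centring and genes. The scripts were tested on simulated data and ran in Python 3.11.15 with matplotlib 3.10.9, pandas 2.3.3, SciPy 1.17.1 and numpy 2.4.6.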

Additional observations from a re-analysis of the deposited data

How the results depend on the processing

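No paired analysis was possible because only group means were at hand, so the shared replicate numbers in the labels were not used, and leaving out single libraries was not run. Depth limits the weak peaks most, but it is unknown for each library.

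Of the alternative values, 67 were classed as the same as the main value, 17 as moved and 11 as reversed. Some of the 67 still shifted. The share of genes with a lower sum went from 65.7% to 51.9% with start peaks only. Also among the 67, the median of the R-spondin and Lgr genes went from -0.38 to -0.0676 at a mean of at least 4, -0.11 with the gene body only and -0.15 at 1 kb. That of the frizzled receptors went from -0.35 to -0.12 within 5 kb of the start. That of the member start peaks went from -0.11 to -0.18 with the starts of all transcripts, and that of the other pathway genes from 0.27 to 0.45 within 5 kb of the start. The 38 lower and 9 higher member peaks became 23 and 4 within 5 kb of the gene start, 1 and 0 at a mean level of at least 4, 1 and 0 at a width of at least 1 kb, 69 and 26 at a limit of 0.5, and 14 and 2 at a limit of 2. The median difference of the members moved from -0.32 to -0.0265 at a mean of at least 4 and reversed to 0.0189 at a width of at least 1 kb. The share below 0 moved from 63.8% to 51.2% and 48.4% under these filters. The Wnt ligand median moved from -0.38 to -0.0478 at a mean of at least 4 and reversed to 0.0189 at 1 kb. The frizzled median, from 7 peaks, reversed from -0.35 to 0.56 with the gene body only and under both filters. The inhibitor median reversed from -0.24 to 0.22 within 5 kb of the start, 0.26 at a mean of at least 4 and 0.24 at 1 kb, and that of the R-spondin and Lgr genes from -0.38 to 0.24 within 5 kb of the start. The feedback inhibitor median moved from 0.79 to 0.52 with 10 kb flanks and to 0.87 when centred on peaks with a mean of at least 4. Genes with a lower sum went from 65.7% to 48.6% with the widest peak alone. The median of the other pathway genes reversed from 0.27 to -0.17 at a mean of at least 4 and to -0.0807 at 1 kb. Filters and windows leave fewer peaks; otherwise the cause was not tested. Leaving out *Lgr5* was chosen after seeing the data.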
